A study of Mus musculus with 33 samples.

Results

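The Fc gamma receptor genes described here are 6 genes listed by name, followed across cell types, tissues and biotin sorts: the IgG receptor genes Fcgr1, Fcgr2b, Fcgr3 and Fcgr4, the signalling chain gene Fcer1g and the neonatal Fc receptor gene Fcgrt. They are 6 of the 32285 genes in the deposited matrices, and all 6 were found by symbol. The data are single-cell RNA-seq counts from mice in which injected cancer cells tagged cells beside them with biotin (SAMENT, a niche labelling method), so that a biotin positive cell is one that was sorted as tagged and a biotin negative cell one that was not. Tissues were taken after an overnight labelling period of about 10 hours, dissociated with collagenase A and sorted. Intracardiac injection gave 32 samples from lung, liver, brain and bone, with 4 biotin negative and 4 biotin positive samples from every tissue. A single pooled bone library from an injection that the labels name only IIA held 6 biotin positive and 6 biotin negative hashtagged samples. Every group carries the same labelling, and no group without cancer cells or without substrate was analysed here. Strain, age, the cancer cell line and the promoter of the labelling enzyme are not stated in the labels or files. Nothing in the labels says whether replicates were separate animals, so p-values measure the spread between these samples.

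Fc gamma receptors bind the constant part of IgG antibodies and let leukocytes take up or respond to antibody-coated targets. Fcgr1 encodes the high-affinity receptor, and Fcgr3 and Fcgr4 encode activating receptors of lower affinity. All 3 signal through the chain encoded by Fcer1g, which carries an activation motif that recruits Syk and which also serves the IgE receptor and several NK cell receptors. Fcgr2b encodes the inhibitory receptor, whose own motif recruits the phosphatase encoded by Inpp5d, and it is known as the Fc gamma receptor of B cells and of the sinusoidal endothelium of the liver, where it takes up immune complexes. Fcgrt encodes the heavy chain of the neonatal Fc receptor, which pairs with B2m inside cells and returns IgG and albumin from endosomes to the surface.

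Of the 6 genes, 4 lie on mouse chromosome 1 (GENCODE vM21, GRCm38): Fcgr2b at chr1:170958617-170976547 (minus strand), Fcgr4 at chr1:171018920-171029761 (plus), Fcgr3 at chr1:171051174-171064935 (minus) and Fcer1g at chr1:171229572-171234365 (minus). Fcgr4 starts 42372 bases after Fcgr2b ends, and the gap from Fcgr4 to Fcgr3 is 21412 bases. Fcgr1 lies at chr3:96282909-96293969 (minus) and Fcgrt at chr7:45092990-45103851 (minus). Exons of Fcgr2b overlap those of an antisense gene, Gm38204.

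The promoter sequences of 3 members that hold a short motif of a myeloid factor are shown, with that of Fcgr2b, which does not and which was highest in an endothelial cluster (below). They are the 250 bases before each RefSeq start site (GRCm38.p6), read 5′ to 3′ on the gene's strand. Capitals mark TTCCTC, the reverse complement of GAGGAA, the core letters of the motif bound by the myeloid factor PU.1. The letters were chosen after the sequences had been read, and both strands were searched.
Fcgr1, chr3:96293970-96294219, minus strand: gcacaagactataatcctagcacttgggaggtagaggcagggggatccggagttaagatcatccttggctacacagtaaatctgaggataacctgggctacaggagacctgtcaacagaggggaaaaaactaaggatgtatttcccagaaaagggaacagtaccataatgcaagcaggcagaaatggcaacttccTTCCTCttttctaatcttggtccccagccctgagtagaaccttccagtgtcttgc
Fcgr3, chr1:171059404-171059653, minus strand: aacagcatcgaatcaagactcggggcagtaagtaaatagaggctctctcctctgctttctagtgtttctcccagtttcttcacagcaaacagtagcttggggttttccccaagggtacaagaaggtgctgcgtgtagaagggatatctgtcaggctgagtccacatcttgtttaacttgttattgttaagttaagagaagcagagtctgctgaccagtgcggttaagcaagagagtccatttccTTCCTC
Fcgr4, chr1:171018676-171018925, plus strand: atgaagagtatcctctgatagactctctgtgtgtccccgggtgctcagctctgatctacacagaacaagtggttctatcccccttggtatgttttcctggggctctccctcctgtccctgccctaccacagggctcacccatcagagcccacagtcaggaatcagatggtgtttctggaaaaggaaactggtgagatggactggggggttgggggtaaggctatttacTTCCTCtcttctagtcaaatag
Fcgr2b, chr1:170976072-170976321, minus strand: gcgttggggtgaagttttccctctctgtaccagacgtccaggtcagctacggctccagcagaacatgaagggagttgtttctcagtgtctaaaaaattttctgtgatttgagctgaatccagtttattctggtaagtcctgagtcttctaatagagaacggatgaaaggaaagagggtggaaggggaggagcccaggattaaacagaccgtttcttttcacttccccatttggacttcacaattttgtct
The match ended 50 bases before the start site in Fcgr1, 1 base before it in Fcgr3 and 17 bases before it in Fcgr4. A second RefSeq start site of Fcgr3 shifts its match to 10 bases before the start. The same 250 bases of Fcgr2b, Fcer1g and Fcgrt held no match on either strand, although Fcer1g, like the 3 genes with a match, was highest in a myeloid class, so the match does not divide the members by cell class. Of 32851 mouse promoters of this length, 23.25% held the letters at least once. A match is only a description of these windows, and binding was not tested.

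Fcgr2b and Fcgr3 share coding sequence, which bears on how their reads can be told apart. Their longest identical run is 129 bases, at coding bases 278 to 406 of Fcgr2b and 263 to 391 of Fcgr3.
Fcgr2b and Fcgr3, shared coding run: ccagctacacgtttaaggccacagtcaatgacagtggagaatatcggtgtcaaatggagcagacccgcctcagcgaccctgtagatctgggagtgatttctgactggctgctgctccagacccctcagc
Of all 50-base windows in the coding sequence, 17.1% of those of Fcgr2b and 22.1% of those of Fcgr3 also occur in the other gene. In the last 500 bases of their transcripts no window was shared, and the intracardiac libraries read that end (3′ libraries). In the first 500 bases the shares were 11.1% and 19.7%, and the IIA library reads that end (5′ library), so Fcgr2b and Fcgr3 are less certain there. No window of the other 4 members occurred in another gene.

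The kept cells numbered 94 to 3505 per intracardiac sample and 249 to 3480 per IIA sample, with median UMIs (unique transcript molecules counted) per cell of 2606 to 11313.5 and 2532 to 10766. The intracardiac samples held 15099 UMIs of Fcgr1, 41008 of Fcgr2b, 99886 of Fcgr3, 46649 of Fcgr4, 701136 of Fcer1g and 23195 of Fcgrt. Levels are given as CPM, a gene's UMIs per 1000000 UMIs of the cells summed in a sample, with no scaling by gene length. Clusters were named from marker genes, and each class name stands for cells like that type. Macrophage and endothelial clusters carry the names of 2 or 3 of their leading genes because they differed in these genes. Class levels are means over samples with at least 10 cells of the class, and the clusters were made from the same cells, so no test sets one class against another. Microglia reached 10 cells only in brain samples, and the Cd5l Clec4f Vsig4 macrophages and the Clec4g Adam23 Gpr182 endothelium only in liver samples.

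Replicate 2 of the biotin positive sort stood apart in make-up. Macrophage, alveolar macrophage and microglia clusters held 41.39% of its cells in bone, 85.63% in brain, 84.07% in liver, 89.46% in lung and 51.34% in the IIA bone, the highest share of the positive samples in each. Biotin negative samples held 0.17% to 9.13% of such cells. The intracardiac samples were multiplexed with CellPlex tags, and the labels do not say which were pooled together. Among them no cell barcode was shared in 112 pairs of samples with the same number, and over 384 pairs of different number 341 were shared, at most 7 in a pair. The 12 IIA samples are all hashtags of 1 library.

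Fcgr1, the high-affinity receptor gene, had its highest means in the Pf4 Spp1 macrophages, at 380.4 ± 209 CPM (SD, n = 17 samples), and in microglia, at 276 ± 47.2 (n = 5), a gap smaller than the larger SD. The order of these means depends on the mix of sorts: Pf4 Spp1 macrophages held 499.8 ± 228 CPM in 8 biotin negative samples and 274 ± 124 in 9 positive ones, whereas 4 of the 5 microglia samples were positive, at 265 ± 46.8. The Ccl12 Ptgds Ccn1 macrophages (155 ± 58.4, n = 15) and the Cd5l Clec4f Vsig4 macrophages (148 ± 32.5, n = 5) followed, indistinguishable from each other. Classical monocytes held 86.7 ± 33.9 CPM (n = 26), nonclassical monocytes 45.9 ± 36.4 (n = 22) and alveolar macrophages 38.8 ± 6.86 (n = 6). Neutrophils held 1.25 ± 1.33 CPM (n = 32). With each cell thinned to 2000 UMIs, 0.2% of neutrophils had an Fcgr1 UMI (0.5% unthinned, median 4121.5 UMIs, 1517 shallower cells left out). In T cells, which are known to lack the gene, the share was 0.4% (0.7% unthinned, median 3483 UMIs, 713 left out), so the neutrophil value is at the background.

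Fcgr2b, the inhibitory receptor gene, was highest in the Clec4g Adam23 Gpr182 endothelium of the liver, whose leading genes are known from liver sinusoidal endothelium. The 7 samples ran from 1481 to 2573 CPM, with a mean of 1977 ± 366, and the next class, the Ccl12 Ptgds Ccn1 macrophages, held 540.5 ± 168 (n = 15). The other endothelial cluster, led by Ly6c1, Epas1 and Ramp2, held 17.0 ± 11.1 CPM (n = 5), and the groups of samples did not overlap. Pf4 Spp1 macrophages held 469 ± 132 CPM (n = 17) and microglia 273 ± 86.7 (n = 5), while the Cd5l Clec4f Vsig4 macrophages, from the same liver samples as the endothelium, held 16.7 ± 13.1 (n = 5). Thinned to 2000 UMIs, 88.8% of the Clec4g endothelial cells had an Fcgr2b UMI (88.2% unthinned, median 3445 UMIs, 164 left out) against 1.2% of T cells (2.2% unthinned, median 3483). B cells held 93.1 ± 38.6 CPM (n = 29).

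The share of Fcgr2b among the UMIs of the 4 receptor genes set the classes apart. It was 97.2% ± 3.73 (SD, n = 7) in the Clec4g endothelium, 66.2% ± 17.7 (n = 23) in B cells and 49.2% ± 8.74 (n = 23) in dendritic cells, counting samples with at least 20 such UMIs. Monocytes and most macrophages lay lower, at 21.2% ± 3.72 (n = 26) in classical monocytes, 14.7% ± 5.55 (n = 22) in nonclassical monocytes and 36.3% ± 7.99 (n = 15) in the Ccl12 Ptgds Ccn1 macrophages. In the Cd5l Clec4f Vsig4 macrophages it was 1.05% ± 0.70 (n = 5). Along the granulocyte classes it was 29.9% ± 2.98 (n = 11) in granulocyte precursors, 12.1% ± 3.68 (n = 19) in neutrophil precursors and 3.05% ± 1.29 (n = 32) in neutrophils. The IIA bone samples showed the same order, at 38.3% ± 6.23 (n = 12), 30.4% ± 3.63 (n = 11) and 12.1% ± 4.92 (n = 12), with the limit on Fcgr2b and Fcgr3 reads given above.

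Fcgr3, the broadly used activating receptor gene, was highest in microglia, at 1162 ± 285 CPM (n = 5, from 923 to 1625). The Ccl12 Ptgds Ccn1 (623 ± 138, n = 15), Pf4 Spp1 (562 ± 176, n = 17) and Cd5l Clec4f Vsig4 macrophages (540.0 ± 86.6, n = 5) did not differ beyond their spread. Classical monocytes (343 ± 63.9, n = 26) and neutrophils (340.3 ± 44.7, n = 32) were alike within theirs. NK cells, in which this receptor mediates antibody-dependent killing, held 60.01 ± 24.7 CPM (n = 20), and 10.5% of them had an Fcgr3 UMI after thinning (15.6% unthinned, median 3046 UMIs, 296 left out) against 3.3% of T cells (5.4% unthinned).

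Fcgr4, a mouse activating receptor gene, was high in 2 classes that did not stand apart. Nonclassical monocytes, the patrolling monocytes of the blood, had a median of 781 CPM, a range of 305 to 5533 and a mean of 1032 ± 1110 over 22 samples, and the highest value came from 10 cells of biotin positive liver replicate 3. The Cd5l Clec4f Vsig4 macrophages had a median of 761 CPM and a mean of 794 ± 279 (n = 5). With finer clusters (Leiden resolution 2.0) the nonclassical mean was 605 ± 233 CPM (n = 21). Alveolar macrophages followed at 226 ± 73.0 (n = 6), neutrophils at 131 ± 23.9 (n = 32) and classical monocytes at 115 ± 60.1 (n = 26). After thinning, 78.6% of the Cd5l Clec4f Vsig4 macrophages (86.0% unthinned, median 6618 UMIs, 172 left out) and 67.8% of nonclassical monocytes (81.1% unthinned, median 4375 UMIs, 188 left out) had an Fcgr4 UMI, against 1.4% of T cells (3.0% unthinned). Within the liver, then, Fcgr4 and Fcgr2b marked different clusters: Fcgr4 was 21.5 ± 33.3 CPM (n = 7) in the Clec4g endothelium.

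Fcer1g, the shared signalling chain gene, was highest in nonclassical monocytes, at 3695 ± 740 CPM (n = 22). Classical monocytes (2762 ± 197, n = 26), Ccl12 Ptgds Ccn1 macrophages (2651 ± 183, n = 15), Pf4 Spp1 macrophages (2530 ± 452, n = 17), microglia (2489 ± 230.2, n = 5), NK cells (2418 ± 346, n = 20) and neutrophils (2360 ± 214, n = 32) each lay within the larger SD of the next. NK cells thus held Fcer1g at the level of neutrophils with little Fcgr3 and with 8.88 ± 11.5 CPM of Fcgr4. In granulocyte precursors Fcer1g was 329.7 ± 80.4 CPM (n = 11), in neutrophil precursors 1507 ± 161 (n = 20). T cells (296 ± 207, n = 29) and B cells (258 ± 137, n = 29) were low.

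Fcgrt, the neonatal Fc receptor gene, had its highest mean in the Clec4g Adam23 Gpr182 endothelium, at 438 ± 72.5 CPM (n = 7), and alveolar macrophages held 328 ± 71.7 (n = 6). The means lay further apart than either SD, but the samples overlapped, at 346 to 511 and 216 to 398 CPM. The Ccl12 Ptgds Ccn1 (303 ± 131, n = 15) and Cd5l Clec4f Vsig4 macrophages (220.1 ± 79.8, n = 5) came next. Pf4 Spp1 macrophages held 38.7 ± 32.0 CPM (n = 17), classical monocytes 20.7 ± 5.99 (n = 26) and neutrophils 3.55 ± 4.95 (n = 32). In the IIA bone the highest Fcgrt level, 577 ± 315 CPM (n = 3), was in macrophages led by Vcam1, Cd5l and Mertk.

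**Figure D1:**
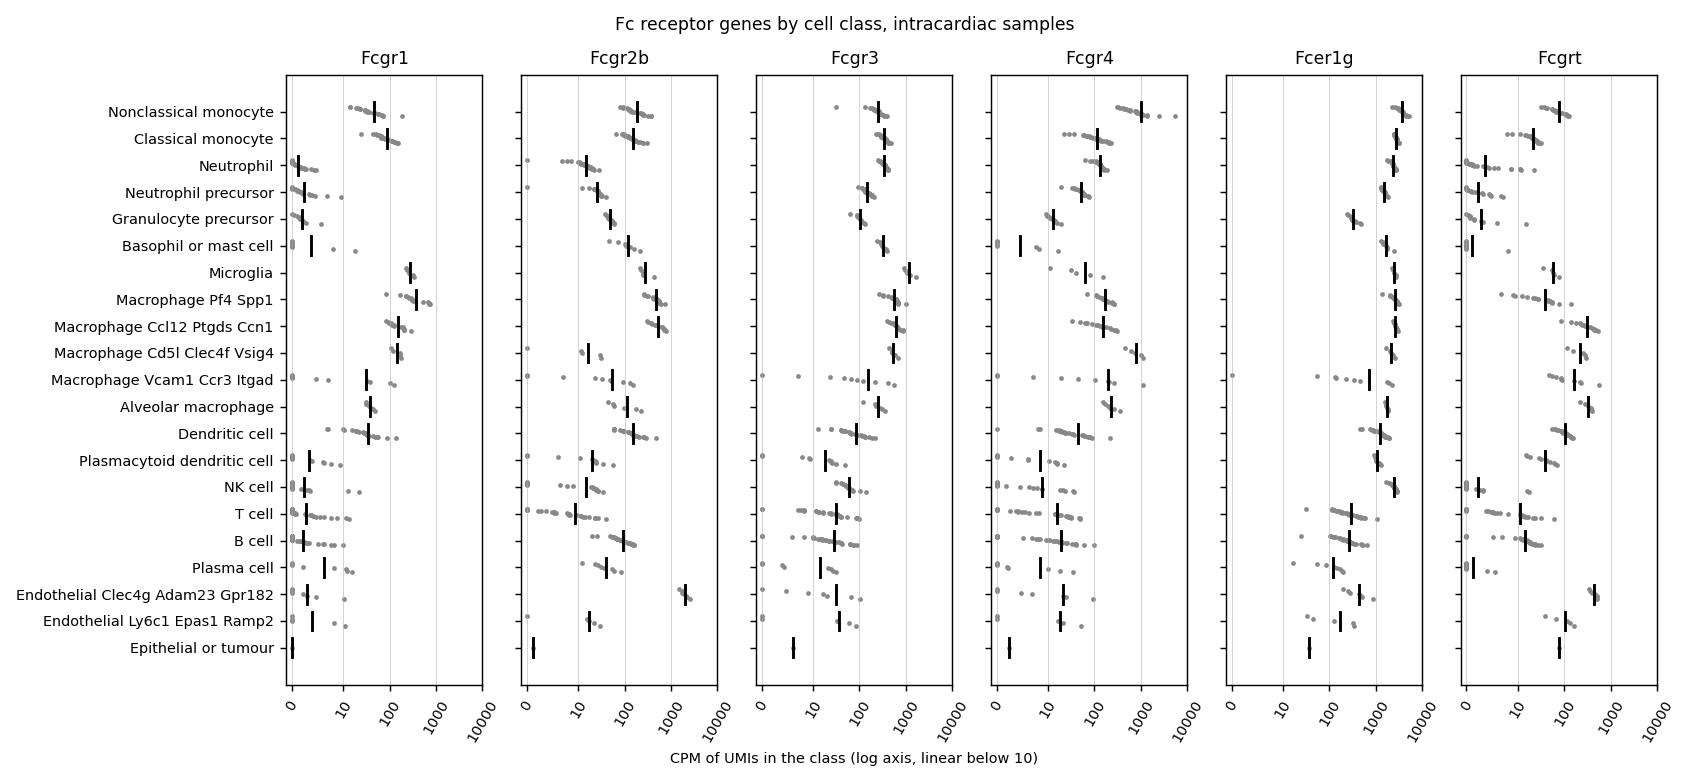
Level of each Fc receptor gene in CPM (log axis, linear below 10) by cell class in the intracardiac samples; each grey point is a sample with at least 10 cells of the class and the black bar is the mean. The highest means of Fcgr2b and Fcgrt were in the Clec4g endothelium, of Fcgr3 in microglia, of Fcgr1 in Pf4 Spp1 macrophages, and of Fcgr4 and Fcer1g in nonclassical monocytes; for Fcgr2b alone, every sample of that class lay above the samples of all other classes shown.

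The genes whose class pattern was most like each member were ranked by Pearson's r of log2(CPM + 1) over 21 classes among 12907 genes, as a description; classes share the libraries and their depth. For Fcgr1 they were Ms4a6d (0.944) and Trem2 (0.942), and for Fcgr3 Naip2 (0.883), C5ar1 (0.875) and Hk2 (0.862). Tlr8 (0.924), Treml4 (0.921) and Pilra (0.918) were closest to Fcgr4, and Tyrobp (0.963), Myo1f (0.915) and Itgb2 (0.90) to Fcer1g. Sumf1 (0.927), Ids (0.913) and Akap7 (0.91) followed Fcgrt. The closest genes to Fcgr2b had lower values, at 0.797 for Zfp652os, 0.751 for Gm49774 and 0.747 for Nrp2, and the closest other member to it was Fcgr1, at 0.584.

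The first comparison set biotin positive against negative samples over all kept cells of a tissue, which asks how much receptor RNA the tagged and untagged populations hold. In such sums, more cells of a type and more RNA per cell cannot be told apart. Each tissue was fitted with edgeR's quasi-likelihood test over all genes, a gene being called at a Benjamini-Hochberg adjusted p under 0.05. These main fits do not pair samples by replicate number, and a fit with the number as a block was an alternative. All 6 members passed the low-count filter in every tissue.

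In the lung, Fcgrt was higher in tagged cells. The biotin positive replicates 1 to 4 held 159, 325, 148 and 97.1 CPM and the negative ones 16.9, 27.9, 24.4 and 11.6. Every positive sample lay above every negative one; the groups did not overlap, in either direction, for 21.0% of 7390 genes with a mean of at least 10 CPM. The log2 difference was 2.87 ± 0.40 (SE; edgeR quasi-likelihood, adjusted p = 0.00307), the only member called of 6, where 18.3% of 12331 genes were called. Alveolar macrophages made up 14.16% to 78.93% of the positive samples' cells and at most 0.83% of the negative samples'. Macrophage, alveolar macrophage and microglia clusters held 88.6% to 96.6% of the Fcgrt UMIs in positive samples and 0.9% to 30.5% in negative ones. Without these clusters, an alternative chosen after seeing the data, the log2 difference was 1.51 ± 0.52 (edgeR, adjusted p = 0.286) and the call was lost, as were those of all other genes (0.0% of 11505 called, 1343 with an unadjusted p under 0.05). Within alveolar macrophages only 1 negative sample had 10 cells, and its 378 CPM lay among the positive samples' 275 to 398. The other 5 members differed by -0.34 to 0.46 on the log2 scale in the lung, none called.

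In the brain no member was called, where 3.06% of 11064 genes were; 2 members reached an unadjusted p under 0.05. With DESeq2 none was called and Fcgrt had no p. Fcgrt was 73.5, 394, 60.2 and 57.1 CPM in positive replicates 1 to 4 and 13.9, 38.1, 30.3 and 8.75 in negative ones. These groups did not overlap, as for 14.9% of 7561 genes with a mean of at least 10 CPM in either direction. Its log2 difference was 2.37 ± 0.74 (edgeR, adjusted p = 0.115). Fcgr3 was 260, 611, 422 and 667 CPM against 152, 328, 201 and 218, and each positive replicate lay above the negative one of its number. With the replicate number as a block, 3 members were called by edgeR, where 6.89% of 11064 genes were: Fcgrt (2.10 ± 0.34, adjusted p = 0.0213), Fcgr3 (0.79 ± 0.17, adjusted p = 0.0429) and Fcgr2b (1.03 ± 0.22, adjusted p = 0.0453). The positive samples held 38.06% to 85.63% macrophage and microglia cells and the negative samples 1.07% to 8.65%. Without those clusters Fcgrt differed by 0.59 ± 0.54 and Fcgr1, Fcgr2b and Fcgr3 by -1.32, -0.19 and -0.17, and 0.0% of 10451 genes were called (edgeR; 487 with an unadjusted p under 0.05). Fcgr4 went the other way in the sum of all cells, at -0.89 ± 0.51 (edgeR, adjusted p = 0.35).

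In bone and liver no member was called, and 0.0% of 12533 and of 11854 genes were (edgeR; 983 and 1571 genes had an unadjusted p under 0.05; DESeq2 called 53 and 431 genes and no member). At this sample size the test recovered 64.6% of simulated 4-fold changes in bone and 6.2% of 2-fold ones. Fcer1g in bone was 1397, 1224, 572 and 1153 CPM in positive replicates 1 to 4 and 1767, 1448, 1405 and 1546 in negative ones. These groups did not overlap, as for 3.45% of 7066 genes with a mean of at least 10 CPM in either direction. Of those genes 199 were higher and 45 lower in positive samples, Fcer1g being among the lower. Its log2 difference was -0.67 ± 0.29 (edgeR, adjusted p = 0.615). Granulocyte precursors, in which Fcer1g is low, made up 5.23% to 31.77% of the positive bone cells and 0.3% to 4.09% of the negative; their part in the difference was not tested. Fcgrt in the liver was 70.5, 263, 82.1 and 18.6 CPM against 26.5, 40.1, 27.0 and 12.998, higher in positive samples by 1.80 ± 0.60 (edgeR, adjusted p = 0.265). Fcgr4 in the liver was 105, 879, 161 and 45.6 CPM in positive and 51.0, 164, 155 and 68.7 in negative samples, and its high value, in replicate 2, came with 78.86% of cells in the Cd5l Clec4f Vsig4 cluster.

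In the IIA bone, Fcgr2b was higher in tagged cells. The 6 positive samples ran from 54.0 to 254 CPM with a median of 80.6 and the 6 negative from 42.6 to 57.9 with a median of 48.7, overlapping only by positive replicate 4. The log2 difference was 1.02 ± 0.33 (edgeR, adjusted p = 0.0229), the only member called of 6, against 50.2% of 12625 genes, so a called gene is common here. Macrophage clusters held 3.61% to 51.34% of the positive cells and 0.52% to 4.49% of the negative. Without them the Fcgr2b difference was -0.06, whereas Fcgr1 (-2.03 ± 0.55, adjusted p = 0.00802) and Fcer1g (-1.43 ± 0.22, adjusted p = 0.000194) were lower in tagged cells, where 53.9% of 12456 genes were called. With all cells Fcer1g was 288 to 1553 CPM in positive samples and 1036 to 1324 in negative ones, a log2 difference of -0.81 ± 0.35 (edgeR, adjusted p = 0.0675). It was called without positive replicate 2 (-1.15, adjusted p = 0.00541) or 3 (-0.98, adjusted p = 0.0369) and by DESeq2 (-0.80, adjusted p = 0.0489). Fcgrt, at 1.24 ± 0.51 (edgeR, adjusted p = 0.0591), was called without positive replicate 1, 5 or 6 (1.39 to 1.47, adjusted p from 0.0152 to 0.0427) and by DESeq2 (1.26, adjusted p = 0.0269), but with the replicate number as a block it was 0.85 ± 0.42 (edgeR, adjusted p = 0.128). Granulocyte precursors made up 3.09% to 47.66% of positive and 0.74% to 2.51% of negative cells; their part was not tested.

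**Figure D2:**
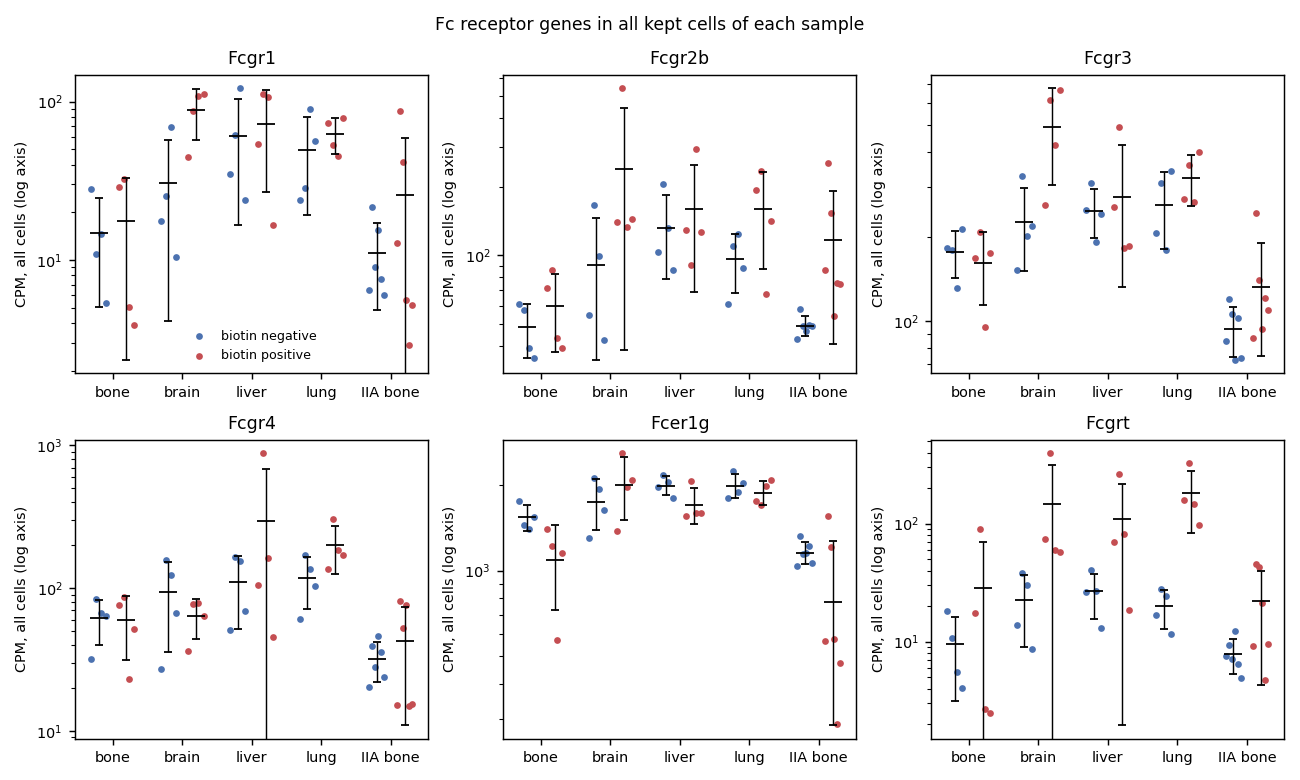
Level of each Fc receptor gene in CPM (log axis) over all kept cells of each sample, by tissue; blue points are biotin negative and red points biotin positive samples, with the mean and SD as bars, cut off where mean minus SD falls below the axis. The groups of Fcgrt in lung and brain and of Fcer1g in bone did not overlap. In either direction this held for 21.0%, 14.9% and 3.45% of genes in these tissues. Of the 3, edgeR called Fcgrt in lung. In liver and IIA bone every member overlapped, where 4.83% and 36.2% of genes did not.

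**Figure D3:**
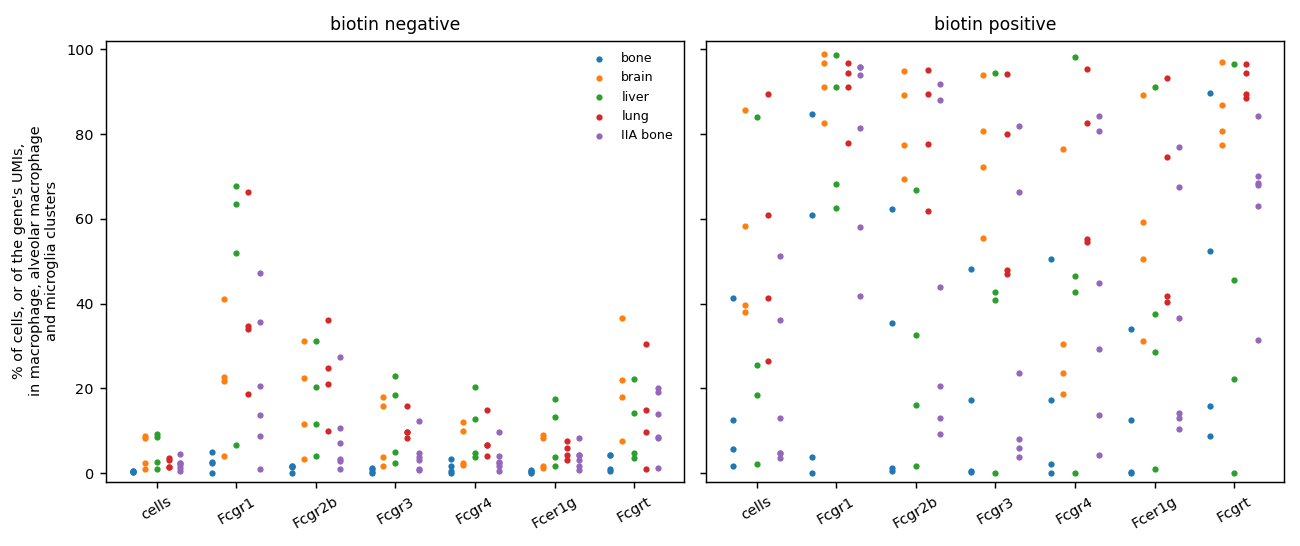
Percent of cells, and of each gene's UMIs, that fell in macrophage, alveolar macrophage and microglia clusters; each point is a sample, coloured by tissue, with negative samples left and positive samples right. These clusters held 0.17% to 9.13% of the cells of negative samples and up to 89.46% of the cells of positive ones.

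The second comparison stayed within a cell class. Monocytes here join the classical and nonclassical clusters, whose mix differed between the sorts: the nonclassical cluster made up 17.2% ± 3.04 of negative and 43.2% ± 9.67 of positive monocytes in lung, 10.3% ± 4.22 and 25.8% ± 11.0 in liver, 17.6% ± 6.95 and 39.4% ± 15.7 in brain, and 22.8% ± 11.5 and 37.8% ± 21.6 in bone. In monocytes of the intracardiac samples no member was called in bone, brain, liver or lung, where 0.0% of 9297 genes were called in each; unadjusted, 340 to 704 genes and 1 member had p under 0.05, and DESeq2 called no member. The fitted differences of Fcer1g were -0.20 to 0.10 and their 95% intervals reached from -0.50 to 0.40, those of Fcgr3 -0.28 to 0.11 with intervals from -0.73 to 0.57. The member with unadjusted p under 0.05 was Fcgr4 in the liver, higher by 1.58 ± 0.68 in tagged monocytes (edgeR, adjusted p = 0.9996). Without positive replicate 3, whose 10 nonclassical monocytes held 5533 CPM, the difference was -0.17. Across tissues, no member was called for a difference in the biotin contrast (0.0% of 9297 genes, 214 with an unadjusted p under 0.05) or in the level of the negative sort (0.43%).

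In IIA bone monocytes Fcgr4 was higher in tagged cells by 3.16 ± 0.63 (edgeR, adjusted p = 0.0346; 4 positive and 6 negative samples), the only member called of 6 against 0.449% of 8681 genes. The nonclassical cluster made up 51.2% ± 28.1 of positive and 18.5% ± 7.68 of negative monocytes. Within it Fcgr4 was 2695, 1594 and 535 CPM in positive replicates 4 to 6 and 276 to 943 in 5 negative samples, so the groups overlapped. In classical monocytes it was 0.0 to 10.2 CPM in 3 positive and 6.47 to 23.5 in 6 negative samples, and the fitted difference of classical monocytes alone was -1.03, not called. With finer clusters (Leiden resolution 2.0) the monocyte difference was -0.42, not called. The call was also lost with 30 cells per sample required (3.02, adjusted p = 0.11) and without any one of 7 of the 10 samples: negative replicates 1, 2, 3, 5 and 6 and positive replicates 4 and 5, with adjusted p from 0.0582 to 0.152 there.

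In neutrophils no member was called in any tissue or in the IIA bone, where 0.0% of 6516 genes per tissue and 16.3% of 6333 were called; 44 to 138 genes per tissue and no tested member were under 0.05 unadjusted, and with DESeq2 no member was called. Fcgr1 was too low to be tested in neutrophils, and so was Fcgrt in IIA neutrophils. The difference of Fcer1g lay between -0.07 and 0.02 over the 4 tissues, with intervals from -0.35 to 0.30, and that of Fcgr3 between -0.16 and 0.04, with intervals from -0.44 to 0.32. In lung, for example, Fcgr3 was 308 to 396 CPM in positive and 279 to 420.4 in negative neutrophils. Between tissues of the negative sort no member was called, against 8.04% of genes. The neutrophil class joins clusters whose mix differed too. A cluster led by Acod1, Hcar2 and G0s2 made up 10.8% ± 4.79 of negative and 54.0% ± 26.3 of positive IIA neutrophils, and one led by Stfa2, Stfa3 and Cstdc5 made up 63.3% ± 18.2 of the negative neutrophils in bone and 2.67% ± 1.79 in lung. In B cells, over the 4 tissues together, Fcgr2b differed by -0.32 ± 0.26 (edgeR, adjusted p = 0.757; 0.0% of 6860 genes called, 588 with an unadjusted p under 0.05, and 5 genes but no member called by DESeq2); Fcgr1 was too low to be tested.

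**Figure D4:**
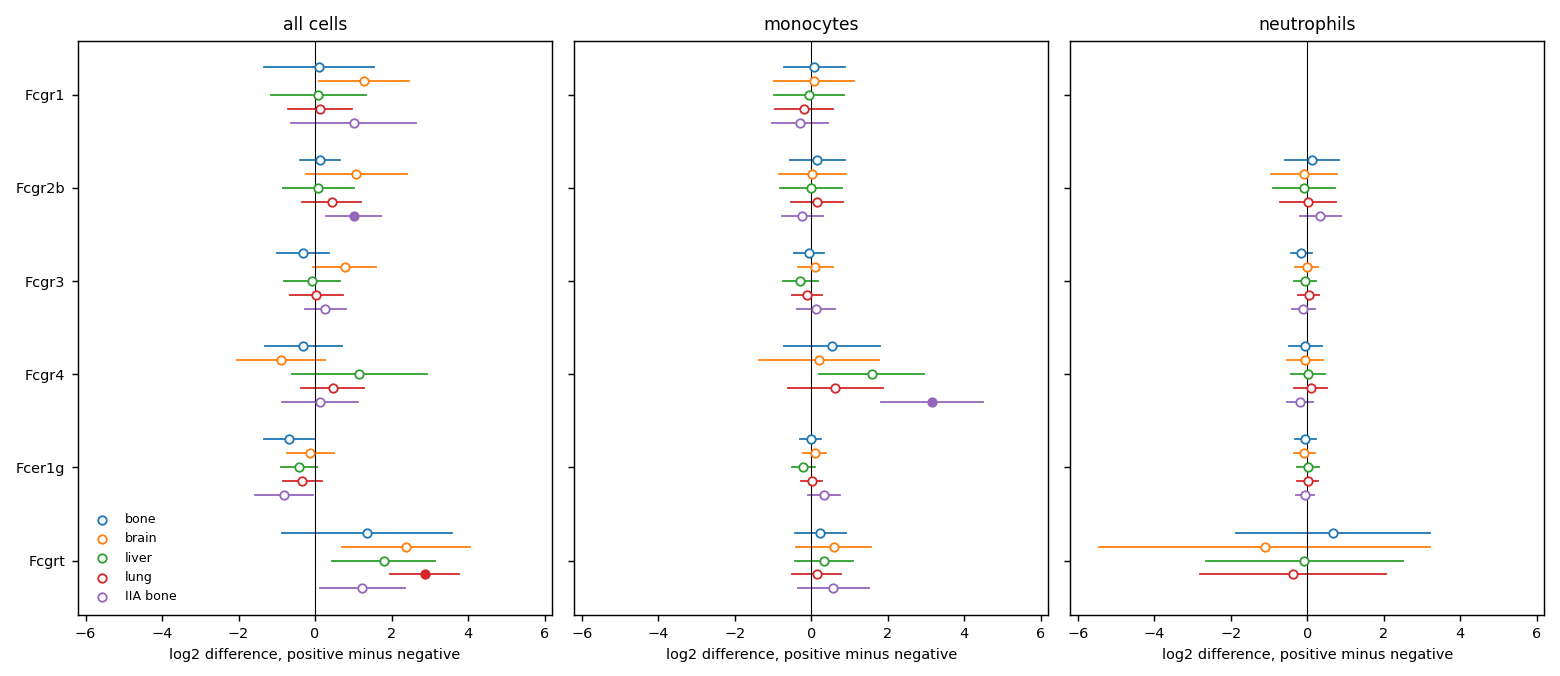
Fitted log2 difference of biotin positive minus negative with its 95% interval for each Fc receptor gene, over all cells, monocytes and neutrophils; colours mark tissues and filled points are called. Filled points are Fcgrt in lung and Fcgr2b in IIA bone over all cells, and Fcgr4 in IIA bone monocytes.

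In macrophages and endothelium too few samples held 10 cells of most classes in most tissues. Among those with enough, 3 classes are described without a test, having been chosen after their values were seen. Pf4 Spp1 macrophages also reached 10 cells in every lung sample of both sorts and in most liver samples. They are not compared by tissue here, and their Fcgr1 levels by sort are given above. In the brain's Ccl12 Ptgds Ccn1 macrophages (4 positive and 4 negative samples), Fcgr4 was 32.1, 63.1, 106 and 47.7 CPM in positive replicates 1 to 4 and 148, 228, 216 and 179 in negative ones. Fcgrt in the same cells was 431, 490, 272 and 385 against 264, 175, 84.3 and 213. Both sets were without overlap, Fcgr4 lower and Fcgrt higher in tagged cells, as were 7.87% of 7636 genes in either direction. The other 4 members overlapped, among them Fcgr3 at 391 to 881 and 484 to 743 CPM.

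In the IIA bone's Pf4 Hmox1 macrophages Fcgr2b was 346, 439, 390, 389 and 748 CPM in positive replicates 1, 2, 3, 5 and 6 and 55.0 to 275 in the 6 negative samples. These groups did not overlap, as for 9.66% of 8135 genes in either direction, and the other 5 members overlapped. The lowest positive value came from 54 cells and the highest from 19. In the Clec4g Adam23 Gpr182 endothelium of the liver Fcgr2b was 1481, 1719 and 1769 CPM in 3 positive samples and 2159, 2211, 2573 and 1927 in 4 negative ones. It was lower without overlap in tagged cells, and 3.35% of 8538 genes did not overlap in either direction. Fcgrt in this endothelium was 456, 511 and 500.4 against 508, 361, 346 and 386 CPM, which overlapped.

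Fcgr4 in classical monocytes fell into ranges by replicate number. It was 21.8 to 75.1 CPM over the 8 samples of number 1, 174 to 226 over the 6 of number 2, 105 to 151 over the 7 of number 3 and 79.0 to 109 over the 5 of number 4. Number 1 overlapped with none of the others and neither did number 2; for 0.397% of 6807 genes with a mean of at least 10 CPM 2 or more numbers stood apart in this way, and Fcgr4 was looked at because of its ranges. For the other 5 members no number stood apart from all others, which at least 1 number did for 1.98% of genes. Fcgr1 was 58.7 to 131 CPM in number 1, 24.2 to 122 in number 2, 97.4 to 152 in number 3 and 45.1 to 73.3 in number 4, and only numbers 3 and 4 did not overlap. Fcgr3 was 227 to 329 CPM in number 3, below number 2 (359 to 489.9) and number 4 (352 to 420), and Fcgr2b was 168 to 306 in number 2, above number 4 (97.9 to 139). Fcer1g ranged from 2482 to 3115 CPM over all 26 samples and every number overlapped with each other. The labels do not say what samples of a number share. No cell barcode was shared in 112 pairs of samples with the same number, against 341 over 384 pairs of different number. What sets the numbers apart, pooling included, was not tested.

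**Figure D5:**
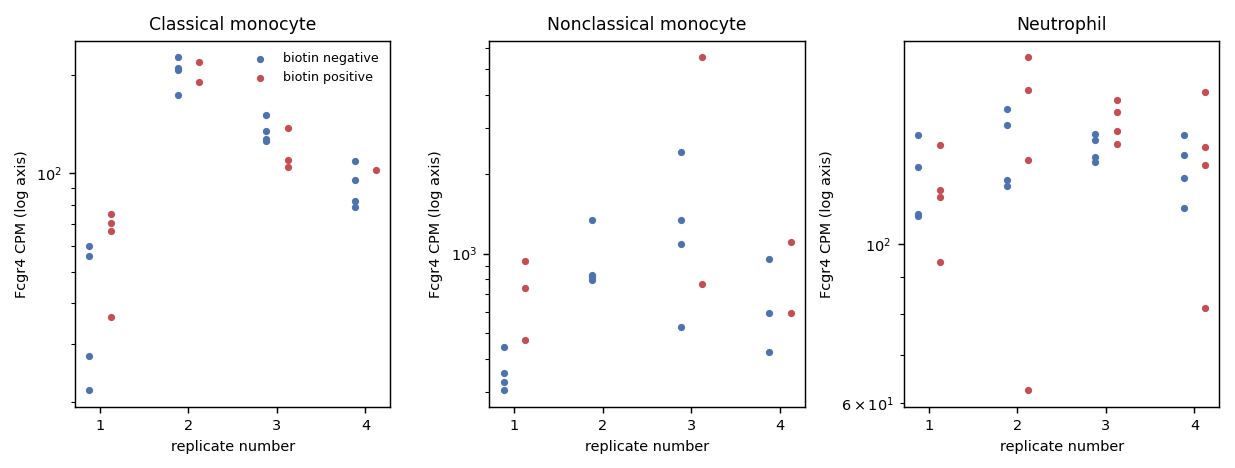
Fcgr4 in CPM (log axis) by replicate number in classical monocytes, nonclassical monocytes and neutrophils of the intracardiac samples; each point is a sample, blue for biotin negative and red for positive. In classical monocytes number 1 lies at 21.8 to 75.1 and number 2 at 174 to 226, whichever the sort.

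Genes that work with these receptors were taken as 4 lists and counted in the sums of all cells. In the lung, where 18.3% of all genes were called, 1 of 19 tested activating kinases and adaptors rose, Sh3bp2, an adaptor of Syk signalling (1.30 ± 0.25; edgeR, adjusted p = 0.0101). In the same list 3 fell: Cd247 (-3.13), the signalling chain of T and NK cell receptors, Lat (-2.44), a T cell adaptor, and Pik3cd (-0.91). Of 7 other Fc receptor genes 3 fell in the lung: Fcmr, the IgM receptor gene (-3.03), Fcer2a, the low-affinity IgE receptor gene (-2.52), and Fcrla (-2.35), all known from B cells. B cells were 0.29% to 4.87% of positive and 6.15% to 23.71% of negative lung cells. Of 6 neonatal receptor partners and endosomal genes 1 fell, Rab4a (-2.44), and of 10 inhibitory phosphatases and adaptors none was called. The counts of the first list (4 of 19) and of the neonatal receptor partners (1 of 6) are near the share over all genes with both directions joined. Over all genes 1416 were higher and 838 lower in tagged lung cells. The lists' median log2 differences in the lung were -0.27, -2.35, 0.00 and -0.20 in that order, and -0.04 over all genes.

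In the brain, where 3.06% of all genes were called, 1 of 6 tested other Fc receptor genes rose, Fcrls (4.58 ± 0.61; edgeR, adjusted p = 0.0155), an Fc receptor-like gene of microglia and one of the markers that named the microglia cluster, which was 3.26% to 45.44% of positive and 0.1% to 0.67% of negative brain cells. No other tested gene of the 4 lists was called there, and none was in bone or liver, where 0.0% of all genes were. In the IIA bone, where 50.2% of all genes were called, 2 of 20 activating kinases and adaptors rose, Src (2.51 ± 0.58, adjusted p = 0.00329) and Vav3 (0.36), and 11 fell, among them Cd247 (-2.64) and Fgr (-1.97), a myeloid Src-family kinase. Of 10 inhibitory genes 6 fell, among them Pag1 (-1.69), Ptpn6 (-0.999) and Dok3 (-0.94), of 7 other Fc receptor genes 6 fell, led by Fcmr (-3.68), Fcer1a (-2.93) and Fcrla (-2.48), and of 6 neonatal receptor partners Rab11b did (-0.23). The counts of the first 2 lists (13 of 20 and 6 of 10) are near that share only with both directions joined. Over all genes 3412 were higher and 2923 lower in tagged cells, whereas in these lists 2 and 0 were higher and 11 and 6 lower. The medians of the 4 lists, in the order given for IIA bone, were -0.48, -0.48, -2.09 and -0.17, against 0.08 over all genes.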

How the data were processed

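The values are UMI counts of each gene in each cell, as the authors deposited them. Per the file headers, cellranger 6.1.2 wrote the 32 intracardiac matrices and cellranger 7.1.0 the pooled one. Per the submitters' processing notes the build is mm10 and the tools Cell Ranger and Seurat; whether intronic reads were counted is not given in the sources used here. Cells were kept with at least 500 UMIs, 200 genes and at most 15% mitochondrial UMIs: 55366 of 57065 intracardiac barcodes. Of 26666 pooled barcodes, 22685 were assigned to the hashtag with at least 10 counts and 3 times the next, and 22362 were kept. Matrix hashtags CMO301 to CMO312 were matched to the deposited key's tags by number. No doublets were removed; as an alternative the 5% of cells with the highest Scrublet score in each sample were left out. Cells were clustered per experiment with scanpy 1.11.5 (2000 variable genes, 30 principal components, 15 neighbours, Leiden resolution 1.0) and a cluster was named from at least 3 markers among its 100 leading genes.

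Counts summed per sample and class (at least 10 cells) were tested with edgeR 4.0.16 in R 4.3.3 (TMM, low-count filter, quasi-likelihood test, Benjamini-Hochberg over all tested genes); DESeq2 1.42.0 was an alternative. Intervals are 95% intervals from the t distribution with the test's degrees of freedom. The 6 genes and all lists were chosen with earlier results of these data known. Genes named are the members, up to 3 called genes per list and direction with the largest difference, and the 3 most alike per member; some genes that this rule names are not reported here. On simulated data the fits recovered 64.6% to 90.8% of 4-fold and 6.2% to 61.2% of 2-fold changes, over 6308 to 12471 genes in 6 comparisons.

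Which intracardiac samples were pooled together is not given in the sources used here. Deviations of samples from their group means were correlated between samples of the same number. For all cells, every such pair was over 0.1 in bone (0.433 to 0.701), brain (0.213 to 0.618) and liver (0.24 to 0.541). The same held for monocytes and neutrophils (0.101 to 0.638). In lung (-0.116 to 0.517) and IIA bone (0.072 to 0.529) not every pair was. Of pairs with different numbers, 3 of 12 were over 0.1 in bone, 3 of 12 in brain (up to 0.428) and 1 of 12 in liver. Their medians were negative. The numbers were taken to pair samples only in the block fits, and the main fits do not pair them. With the block, the SE was 0.17 against 0.37 for Fcgr3 in brain and 0.24 against 0.23 for Fcer1g in lung.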

Additional observations from a re-analysis of the deposited data

Results flagged for a closer look

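In 14 of 180 groups of 4 to 10 samples (7.78%) a member's highest or lowest sample lay far from the others of its group by Dixon's criterion; chance gives about 1 group in 20. Of these, 8 were replicate 2 of a biotin positive group. Over all cells they were Fcgrt in bone (90.74 CPM against 2.48 to 17.52), Fcgr2b (541.85 against 133.25 to 144.3) and Fcgrt (393.71 against 57.08 to 73.47) in brain, Fcgr3 in IIA bone (242.87 against 87.3 to 139.58), and Fcgr4 (879.0 against 45.58 to 161.45) and Fcer1g (2076.85 against 1557.3 to 1600.53) in liver. In neutrophils of these samples Fcer1g was low in bone (1842.98 against 2247.31 to 2282.87) and Fcgrt high in liver (22.11 against at most 0.76). The share of macrophage, alveolar macrophage and microglia clusters was also highest in replicate 2 of each positive group. The part of this share in these values was not tested. These values are not shown to be independent, since the intracardiac samples share a number and some genes come from the same sample. The number of the IIA sample is not shown to match theirs.

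Fcgr1 in classical monocytes was high in replicate 3 of negative brain (152.4 CPM against 64.93 to 79.81) and of negative lung (144.62 against 63.83 to 65.94). In IIA negative nonclassical monocytes Fcgr2b was high in replicate 5 (196.11 against 75.61 to 106.79) and Fcgr4 in replicate 4 (942.63 against 276.26 to 413.36). In neutrophils Fcgr2b was low in negative bone replicate 4 (11.01 against 17.63 to 18.43), and Fcgr1 was 2.01 in positive brain replicate 1 where the other 3 samples had no UMI.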

How the results depend on the processing

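Lung Fcgrt was called on leaving out any 1 sample. The replicate block called 3 members in brain (762 of all genes) and 2 in IIA bone (6197 of all genes) over all cells (Fcer1g added, -1.04, adjusted p = 0.0239, edgeR), where the numbers are not shown to pair the samples, and changed no other member call. DESeq2 called 3 in IIA bone over all cells (6783 of all genes), a hashtag ratio of 2 called 2 (6481), and leaving out 1 IIA sample called 1 to 2. The alternatives chosen after seeing the data were leaving out macrophage clusters, classical monocytes alone and leaving out IIA samples. Without macrophage clusters 0 members were called in lung, where 0 genes of any kind were (2254 with these clusters), and 2 in IIA bone, where 6708 genes were; log2 differences turned to -1.32 (Fcgr1), -0.186 (Fcgr2b) and -0.174 (Fcgr3) in brain and to -2.026 (Fcgr1, adjusted p = 0.00802, edgeR) and -0.064 (Fcgr2b) in IIA bone. The Fcgr4 call in IIA monocytes went to 0 with at least 30 cells, at Leiden resolution 2.0 (-0.417) and in classical monocytes alone (-1.026), and to 0 or 1 on leaving out 1 sample. Fcgr4 in liver monocytes turned with at least 30 cells (-0.349), without liver positive replicate 3 (-0.171; up to 2.115 without positive replicate 1) and in classical monocytes alone (-0.813). Of 86 uncalled member differences, 60 changed sign under some alternative and 1 of these was called there. Without thinning, 3 of 6 members kept the class with the highest share of cells. Over all genes, brain calls went from 339 to between 3 and 758 on leaving out 1 sample (0 without macrophage clusters, 1225 by DESeq2), monocyte calls between tissues from 40 to 427 and neutrophil calls between tissues from 524 to 1737 with the block, and IIA monocyte calls from 39 to between 0 and 87. Some class values rest on few cells. In simulations, however, the class fits recovered 21.4% to 61.2% of 2-fold changes and the all-cell fits 6.2% to 58%. What limits the class comparisons was not tested.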

Other observations

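Outside the main classes, plasmacytoid dendritic cells held 1055 ± 122 CPM of Fcer1g (SD, n = 11), with 20.1 ± 16.5 of Fcgr2b and 18.3 ± 14.5 of Fcgr3. Basophil or mast cells, which use the same signalling chain for the IgE receptor, held 1680.1 ± 391 CPM of Fcer1g (n = 7), 317 ± 52.5 of Fcgr3 and 119 ± 55.0 of Fcgr2b, with 4.58 ± 6.33 of Fcgr4 and 3.71 ± 6.96 of Fcgr1. Plasma cells held 40.7 ± 23.0 CPM of Fcgr2b (n = 8) against 93.1 ± 38.6 in B cells (n = 29). The Vcam1 Ccr3 Itgad macrophage cluster reached 10 cells in 10 samples, each biotin positive, and was uneven. Fcer1g ranged from 0.0 to 2179 CPM, Fcgr4 from 0.0 to 1127 and Fcgrt from 47.2 to 552. In bone positive replicates 3 and 4 it was 5.48% and 1.5% of cells, of 5.65% and 1.62% in all macrophage clusters. Those clusters held 0.3% and 0.1% of the Fcer1g UMIs there, so the name macrophage, given from markers, is uncertain for this cluster. It is counted in the macrophage shares, with 33.17% of cells in bone positive replicate 2, and left out in the fits without macrophage clusters.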
